A study of Mus musculus with 12 samples.

Results

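Cholesterol is built from acetyl-CoA in a long chain of enzyme steps, and the genes of that chain are switched on together by the transcription factor SREBP-2 when the sterol content of the endoplasmic reticulum falls. The brain makes nearly all of its own cholesterol, because lipoproteins do not cross the blood-brain barrier, and myelin holds most of it. Described here are 7 genes of this pathway, picked by symbol out of the 24421 gene symbols counted in each library. Srebf2 encodes SREBP-2 itself. Hmgcs1 (HMG-CoA synthase, at the entry to the mevalonate chain), Idi1 (isopentenyl diphosphate isomerase), Fdft1 (squalene synthase), Sqle (squalene epoxidase), Lss (lanosterol synthase) and Cyp51 (lanosterol 14-alpha demethylase) encode enzymes in that order along the chain. None of the 7 is a receptor or carrier for cholesterol uptake, so uptake genes were taken from a separate list.

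RNA was sequenced from mouse brain in 4 groups of 3 libraries. The naive group was cortex from mice that received no injection. The other groups were whole tumours raised by injecting into the brain RCAS virus, an avian retroviral vector, that carried 1 of 3 fusion genes, each joining YAP1 to another gene. They were YAP1-MAMLD1-dR3R1 in the first tumour group, YAP1-FAM118B in the next and YAP1-TFE3 in the last. YAP1 is the co-activator at the end of the Hippo pathway, and TFE3 is a transcription factor of the MiT/TFE family. The labels do not explain the suffix dR3R1 and give no strain, age, host genotype or infected cell type. They do not say whether replicates came from separate mice, and each p-value rests on the spread between these libraries. As naive mice had no injection of any virus, the effect of the fusion, of the injection and of the change of tissue cannot be told apart.

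All 7 genes were counted in every library and passed the filter on low counts, with 16364 genes tested in all. The libraries held between 19850220 and 24760814 counted reads. The lowest count of any of the 7 was 78 reads, for Idi1 in YAP1-MAMLD1-dR3R1 replicate 2. The labelled tissue field calls all samples brain tumour, including the naive ones, whereas the naive source is given as cortex. The extraction text speaks of cultured cells and the study's design of frozen tumours. Summed neuron markers (12 genes) lay between 8595 and 12009 CPM (reads scaled to a common library size) in naive libraries, so those libraries held the RNA of brain tissue. Naive replicate 2 and YAP1-FAM118B replicate 2 stood apart, since each held both Xist (25.6 and 162 CPM) and the Y-linked Ddx3y (49.3 and 29.9 CPM). In each of the naive, YAP1-MAMLD1-dR3R1 and YAP1-FAM118B groups, 1 library held Xist with almost no Ddx3y and at least 1 other Ddx3y with almost no Xist, so those libraries did not all come from 1 animal. All YAP1-TFE3 libraries held Ddx3y with Xist at no more than 0.434 CPM.

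Some genes of this pathway carry, near their starts, short elements that SREBP-2 and its partners are known to bind. Such elements are shown because the 7 genes are read here as one regulated group. RefSeq promoter windows on GRCm38.p6, from 250 bases before to 50 after the start, were held for 5 of the 7 genes, leaving out Sqle and Fdft1. The letters TCACCNCA or TCACNCCA, both forms of the sterol regulatory element, were searched on both strands, and overlapping matches of the 2 forms were counted once. At least 1 form was found in Hmgcs1 (TCACCCCA, 137 bases before the start), Srebf2 (TCACCCCA, 162 bases before) and Cyp51 (TCACCTCA, 88 bases before), and in 7.18% of all 32851 promoter windows. CCAAT, the letters bound by NF-Y, was found in all 5 windows against 37.4% of all windows, and CCGCCC, an Sp1 element, in all 5 against 35.7%. By the GENCODE annotation used below, the CCAAT matches of Idi1 and Cyp51 lie after the start of the gene. None of the 5 windows held CACGTG (7.15% of all windows), its longer MiT/TFE form TCACGTGA (0.974%) or the TEAD element GGAATG (14.7%). A match is a run of letters and not a shown binding site, and the motifs were chosen with the sequences already seen. The stretches below are 120 bases each, 5′ to 3′ along the gene, with the sterol element and CCAAT (read as ATTGG on the other strand) in capitals. Lss is shown as a window with a CCAAT match and no sterol element match.
Hmgcs1, chr13:119690114-119690233, plus strand: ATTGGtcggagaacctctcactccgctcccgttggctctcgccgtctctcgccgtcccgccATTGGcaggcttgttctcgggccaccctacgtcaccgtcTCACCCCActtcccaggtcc
Srebf2, chr15:82147051-82147170, plus strand: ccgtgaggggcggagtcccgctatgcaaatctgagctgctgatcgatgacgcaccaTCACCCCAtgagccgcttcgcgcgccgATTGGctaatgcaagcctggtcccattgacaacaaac
Cyp51, chr5:4104747-4104866, minus strand: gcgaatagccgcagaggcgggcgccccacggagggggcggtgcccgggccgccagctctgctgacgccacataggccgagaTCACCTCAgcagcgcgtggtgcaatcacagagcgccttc
Lss, chr10:76531468-76531587, plus strand: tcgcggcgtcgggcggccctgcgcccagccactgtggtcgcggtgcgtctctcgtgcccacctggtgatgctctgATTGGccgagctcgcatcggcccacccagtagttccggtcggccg

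The genes themselves lie on 5 chromosomes of GRCm38, by the GENCODE vM21 annotation, and the counts are read as belonging to their exons. Hmgcs1 spans chr13:119690379-119708260 and Idi1 chr13:8885501-8892451, both on the plus strand. Sqle spans chr15:59315077-59331192 and Srebf2 chr15:82147181-82205379, on the plus strand of another chromosome. Lss spans chr10:76531588-76557138 on the plus strand, Fdft1 chr14:63145150-63179578 on the minus strand, and Cyp51 chr5:4081145-4104746 on the minus strand. Exons of 5 of the 7 overlap exons of a gene on the other strand, and the strand setting of the counting is not given in the sources used here. The longest such overlap, 774 bases, is between Fdft1 and Ctsb, a lysosomal protease gene at 595 to 3167 CPM in these libraries. On the log2 scale Ctsb was higher than naive by 2.17 for YAP1-MAMLD1-dR3R1, by 1.20 for YAP1-FAM118B and by 1.33 for YAP1-TFE3 (edgeR adjusted p = 6.73e-05, 0.00494 and 8.04e-04). Reads from the 2 genes could not be separated in that overlap, so the level of Fdft1 is uncertain to that extent. Sqle had no such overlap.

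In naive cortex, where levels can be set side by side per kilobase of exon, Hmgcs1 stood highest at 86.1 ± 9.36 CPM per kb (mean ± SD, n = 3, as for all means here). Srebf2 (31.4), Cyp51 (26.2), Fdft1 (23.5) and Sqle (18.8 ± 2.46) followed, and Lss (4.36) and Idi1 (3.003 ± 0.508) were lowest. The value for Lss divides by an annotated exon length of 10787 bases over all its transcripts. All further levels are CPM scaled by edgeR's TMM factors, which correct for differences in RNA composition, and are compared within a gene only.

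Srebf2, the regulator, was at 245, 217 and 214 CPM in naive replicates 1 to 3 and at 132, 123 and 157 CPM in YAP1-MAMLD1-dR3R1. It was at 176, 175 and 163 CPM in YAP1-FAM118B and at 141, 215 and 146 CPM in YAP1-TFE3. Every YAP1-MAMLD1-dR3R1 and YAP1-FAM118B library lay below every naive one, while YAP1-TFE3 replicate 2 reached into the naive range and the other two YAP1-TFE3 libraries stayed below it. The group means ran from naive (225 ± 17.1) through YAP1-FAM118B (171 ± 7.29) and YAP1-TFE3 (167 ± 41.1) to YAP1-MAMLD1-dR3R1 (137 ± 17.6). With all libraries in the fit, no test separated the last 3 of these.

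Hmgcs1, which condenses acetyl-CoA units at the entry to the chain, was at 419, 346 and 422 CPM in naive libraries and at 159, 149.5 and 213 CPM in YAP1-MAMLD1-dR3R1. It was at 210, 226 and 179 CPM in YAP1-FAM118B and at 374, 658 and 401 CPM in YAP1-TFE3. The first 2 tumour groups overlapped each other and lay wholly below naive, and the YAP1-TFE3 libraries lay around naive, with replicate 2 above it.

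Idi1, which makes the reactive isoprenoid unit, had the lowest counts of the group. It was at 9.16, 9.89 and 12.5 CPM in naive libraries and 3.34, 3.77 and 5.10 CPM in YAP1-MAMLD1-dR3R1, then at 6.16, 5.21 and 5.44 CPM in YAP1-FAM118B and 7.04, 10.7 and 12.2 CPM in YAP1-TFE3. The YAP1-FAM118B libraries sat between those of YAP1-MAMLD1-dR3R1 and naive without overlap, and YAP1-TFE3 overlapped naive.

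Fdft1, which joins 2 farnesyl units into squalene and so commits the chain to sterols, was at 107, 99.3 and 91.2 CPM in naive libraries and 65.0, 51.2 and 52.3 CPM in YAP1-MAMLD1-dR3R1. It was at 72.9, 67.2 and 67.3 CPM in YAP1-FAM118B and 60.5, 110.1 and 63.6 CPM in YAP1-TFE3. As for Srebf2, only YAP1-TFE3 replicate 2 reached the naive range among the 9 tumour libraries.

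Sqle, which puts oxygen on squalene and is a rate-limiting step of the later chain, was at 104, 90.7 and 118 CPM in naive libraries and 60.3, 39.8 and 71.5 CPM in YAP1-MAMLD1-dR3R1. It was at 60.4, 65.8 and 58.8 CPM in YAP1-FAM118B and at 202, 256 and 196 CPM in YAP1-TFE3. It was the 1 gene of the 7 whose YAP1-TFE3 libraries all exceeded all naive libraries, as the plot of levels by library shows.

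Lss, which makes lanosterol, the first sterol of the chain, was at 49.0, 43.8 and 48.4 CPM in naive libraries and 33.6, 28.4 and 33.3 CPM in YAP1-MAMLD1-dR3R1. It was at 27.02, 29.5 and 31.9 CPM in YAP1-FAM118B and 42.7, 72.1 and 67.9 CPM in YAP1-TFE3. Cyp51, which removes the first methyl group from lanosterol, was at 116, 104 and 127 CPM in naive libraries and 61.5, 48.6 and 61.9 CPM in YAP1-MAMLD1-dR3R1. For Cyp51 the YAP1-FAM118B libraries were at 77.9, 60.5 and 77.6 CPM and the YAP1-TFE3 libraries at 104, 186 and 172 CPM. For both genes replicates 2 and 3 of YAP1-TFE3 lay above naive and replicate 1 at or below the lower end of the naive range.

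**Figure D1:**
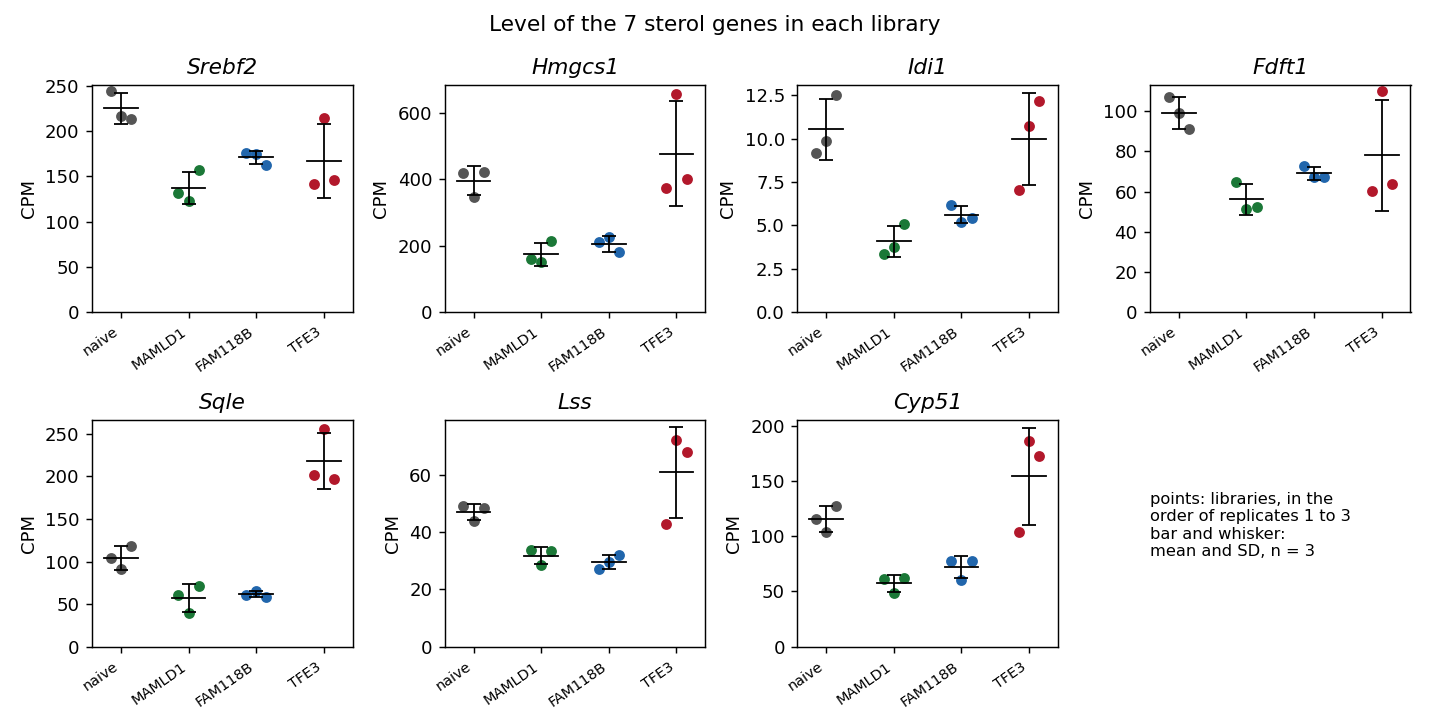
Level of each of the 7 genes in CPM (vertical axis, from 0) in the 12 libraries, with points for replicates 1 to 3 of each group and a bar and whisker for the mean and SD (n = 3). YAP1-MAMLD1-dR3R1 and YAP1-FAM118B points lie below all naive points in every panel, and the Sqle panel has all YAP1-TFE3 points, from 196 to 256 CPM, above naive.

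Set against naive cortex, YAP1-MAMLD1-dR3R1 tumours had lower levels of all 7 genes, from the regulator down the chain. The fall was 2.58-fold for Idi1 (log2 fold change -1.37 ± 0.26 SE, edgeR quasi-likelihood test, Benjamini-Hochberg adjusted p = 0.00117) and 2.27-fold for Hmgcs1 (-1.19 ± 0.23, adjusted p = 0.00157). Cyp51 fell by 1.01, Sqle by 0.87, Fdft1 by 0.82 and Srebf2 by 0.71 on the log2 scale (adjusted p = 0.00238, 0.00449, 0.00715 and 0.00469). Lss fell least, by 0.57 (adjusted p = 0.0198). All 7 passed the adjusted p threshold of 0.05, where 28.8% of all tested genes were called lower and 63.2% were called in either direction. Another 34.4% of all genes were called higher. In all 7 the 3 tumour libraries lay below the 3 naive ones, a pattern seen for 34.9% of all genes. The median change of the 7 was -0.87, beside 0.06 over all genes tested. The call for Lss was lost in 4 of 21 alternative fits (other scalings, filters, designs, DESeq2 and each library left out in turn), at an adjusted p of up to 0.0734.

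YAP1-FAM118B tumours showed lower values of the same genes, with smaller or similar changes. Hmgcs1 fell 1.93-fold (log2 -0.95 ± 0.23, adjusted p = 0.0129), Idi1 1.88-fold (-0.91 ± 0.25, adjusted p = 0.0228) and Sqle 1.69-fold (-0.76 ± 0.21, adjusted p = 0.0199). Cyp51 and Lss fell by 0.68 and 0.67 on the log2 scale (adjusted p = 0.0363 and 0.0195). The values for Fdft1 (-0.52 ± 0.21, adjusted p = 0.0890) and Srebf2 (-0.40 ± 0.17, adjusted p = 0.105) did not pass. So 5 of 7 were called lower, where 8.45% of all genes were called lower, 21.3% higher and 29.7% in either direction. All 7 had tumour libraries wholly below naive, as did 27.1% of all genes, and the median of the 7 was -0.68 beside -0.05 over all genes. The count of 5 was not stable. It rose to 7 with only the groups compared in the fit and to 7 without YAP1-TFE3 replicate 2, where Fdft1 (-0.46, adjusted p = 0.0226) and Srebf2 (-0.33, adjusted p = 0.0472) were called lower. It fell to 1 when naive replicate 1, naive replicate 3, YAP1-FAM118B replicate 1 or YAP1-FAM118B replicate 3 was left out, and to 3 without YAP1-FAM118B replicate 2, YAP1-MAMLD1-dR3R1 replicate 2 or YAP1-MAMLD1-dR3R1 replicate 3. The last 2 are in neither group but in the joint fit, where leaving out either moved the median of all genes by 0.06.

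YAP1-TFE3 tumours went another way: Sqle was higher than in naive cortex and Srebf2 lower, and the other 5 were not called. Sqle rose 2.09-fold (log2 1.06 ± 0.21, adjusted p = 0.00109), with all 3 libraries above naive, as for 42.5% of all genes. This call was kept in those 21 alternative fits, with values from 0.70 to 1.16. It was lost in a further fit on only libraries with Ddx3y and almost no Xist, which held 1 naive library and gave 0.88. Srebf2 fell by 0.43 (SE 0.17, adjusted p = 0.0427), with overlapping libraries, and that call was lost in 12 of 21 alternative fits, at an adjusted p of up to 0.0847. Cyp51 (0.41, adjusted p = 0.103), Lss (0.37, adjusted p = 0.0890), Hmgcs1 (0.27, adjusted p = 0.310), Idi1 (-0.08, adjusted p = 0.796) and Fdft1 (-0.35, adjusted p = 0.165) missed the threshold. The 95% interval for Hmgcs1 ran from -0.26 to 0.80 and that for Idi1 from -0.66 to 0.50, so changes of that size in either direction could not be told from none. In this comparison 40.6% of all genes were called higher, 30% lower and 70.6% in either direction, and the median was 0.27 for the 7 and 0.23 over all genes. The median over all genes depended on the scaling: it was 0.03 by library size only, 0.07 with DESeq2-type RLE factors and 0.10 with upper-quartile factors, so changes against naive of up to that shift depend on the scaling. YAP1-TFE3 replicate 2 was the highest YAP1-TFE3 library for all of the 7 but Idi1. Without it, Sqle was still higher (0.70, adjusted p = 0.0141), Srebf2 (-0.89, adjusted p = 2.45e-04) and Fdft1 (-0.91, adjusted p = 4.39e-04) were lower, and the values for Hmgcs1 (-0.27) and Lss (-0.00645) were negative and not called. In that fit the median of all genes was 0.00951 in place of 0.23, a shift that all of these values share.

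The tumour groups were then set against each other, which leaves naive cortex out of the contrast. Between YAP1-FAM118B and YAP1-MAMLD1-dR3R1 none of the 7 was called by edgeR or by DESeq2, and none had an unadjusted p under 0.05, where 26.2% of all genes were called in either direction (12.7% higher, 13.5% lower). The differences lay between -0.11 for Lss (95% interval -0.53 to 0.31) and 0.46 for Idi1 (-0.13 to 1.05), and differences inside such intervals could not be told from none. Idi1, Fdft1 and Srebf2 had all YAP1-FAM118B libraries above all YAP1-MAMLD1-dR3R1 libraries, as did 23.7% of all genes. Without YAP1-TFE3 replicate 2, which is in neither group but in the joint fit, 2 of the 7 were called higher in YAP1-FAM118B: Srebf2 (0.41, adjusted p = 0.0229) and Fdft1 (0.39, adjusted p = 0.0437). The median of all genes moved by 0.09 in that fit.

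YAP1-TFE3 tumours had higher levels of 5 of the 6 enzymes than YAP1-MAMLD1-dR3R1 tumours. The difference was 3.81-fold for Sqle (log2 1.93 ± 0.21, adjusted p = 1.16e-04), 2.75-fold for Hmgcs1 (1.46 ± 0.24, adjusted p = 0.00107) and 2.69-fold for Cyp51 (1.43 ± 0.22, adjusted p = 7.43e-04). Idi1 was higher by 1.29 and Lss by 0.94 on the log2 scale (adjusted p = 0.00324 and 0.00291). Fdft1 (0.47, adjusted p = 0.10, 95% interval -0.01 to 0.96) and Srebf2 (0.28, adjusted p = 0.208, interval -0.11 to 0.67) were not called. The share of all genes called here was 22.6% higher and 16.9% lower, or 39.5% in all, and 5 of the 7 had libraries that did not overlap, against 27% of all genes. All 5 calls were kept when any single library was left out. Without YAP1-TFE3 replicate 2 the differences were 1.60 for Sqle, 0.95 for Hmgcs1, 1.06 for Cyp51, 1.03 for Idi1 and 0.59 for Lss, and the median of all genes shifted by -0.21, from -0.05 to -0.25.

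The same 5 enzymes were higher in YAP1-TFE3 than in YAP1-FAM118B tumours, a comparison that shares the YAP1-TFE3 libraries with the previous one. Sqle was 3.53-fold higher (1.82 ± 0.21, adjusted p = 1.23e-04), Hmgcs1 2.33-fold (1.22 ± 0.23, adjusted p = 0.00202), Cyp51 2.14-fold (1.10 ± 0.21, adjusted p = 0.00220) and Lss 2.07-fold (1.05 ± 0.18, adjusted p = 0.00122). Idi1 was 1.78-fold higher (0.83 ± 0.25, adjusted p = 0.0199), a call lost in 12 of 21 alternative fits at an adjusted p of up to 0.205. Of all genes 28% were called higher, 23.7% lower and 51.7% in either direction, and 31.4% had YAP1-TFE3 libraries wholly above, as did 5 of the 7. Fdft1 (0.18, adjusted p = 0.512) and Srebf2 (-0.04, adjusted p = 0.876) were not called with all libraries. Without YAP1-TFE3 replicate 2, Fdft1 (-0.46, adjusted p = 0.0254) and Srebf2 (-0.55, adjusted p = 0.00568) were lower in YAP1-TFE3, while Sqle was at 1.39, Hmgcs1 at 0.62, Lss at 0.60 and Cyp51 at 0.63, all still called. The median of all genes in that fit shifted by -0.26, from 0.08 to -0.18.

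Without the replicates 2 of naive and YAP1-FAM118B that held Xist beside Ddx3y, 7 of 7 genes were still called in YAP1-MAMLD1-dR3R1 against naive, but 2 in YAP1-FAM118B and 1 in YAP1-TFE3. In the tumour contrasts the YAP1-TFE3 counts were then 5 against YAP1-MAMLD1-dR3R1 and 4 against YAP1-FAM118B. A fit used only the libraries with Ddx3y and almost no Xist: all 3 of YAP1-TFE3, 2 of YAP1-MAMLD1-dR3R1, 1 of YAP1-FAM118B and 1 naive. Most calls were lost in it. As 1 library shows no spread within its group, only sizes are given. In YAP1-MAMLD1-dR3R1 against naive they ran from -1.25 for Hmgcs1 to -0.71 for Lss, and in YAP1-FAM118B from -1.11 for Hmgcs1 to -0.46 for Cyp51. In YAP1-TFE3 against YAP1-MAMLD1-dR3R1 the sizes were 1.83 for Sqle, 1.33 for Cyp51, 1.26 for Hmgcs1, 1.02 for Idi1 and 0.83 for Lss. Against YAP1-FAM118B they were 1.59, 0.69, 1.12, 0.56 and 0.63. That fit was chosen after seeing the data and rests on 7 libraries.

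The distance between the enzymes and their regulator can be read within each library as enzyme reads per Srebf2 read, which needs no scaling between libraries. Sqle gave 0.425, 0.417 and 0.552 reads per Srebf2 read in naive libraries and 0.457, 0.323 and 0.455 in YAP1-MAMLD1-dR3R1. It gave 0.343, 0.376 and 0.361 in YAP1-FAM118B and 1.43, 1.19 and 1.35 in YAP1-TFE3. The YAP1-TFE3 libraries stood above all 9 others, and the YAP1-TFE3 mean of 1.32 ± 0.120 compares with 0.465 ± 0.0757 in naive. Hmgcs1 gave 2.65 to 3.07 in YAP1-TFE3 libraries, beside 1.59 to 1.98 in naive, 1.21 to 1.36 in YAP1-MAMLD1-dR3R1 and 1.10 to 1.29 in YAP1-FAM118B. Cyp51 (0.738 to 1.18) and Lss (0.303 to 0.466) were likewise higher in all YAP1-TFE3 libraries than in the other 9, whose highest values were 0.596 and 0.255. Such a ratio also rises when Srebf2 falls. In YAP1-TFE3 against naive the log2 change of Srebf2 was -0.43, beside a median of 0.23 over all genes. The ratio of a typical gene to Srebf2 was therefore also higher than in naive. The share of all genes with this pattern was not counted. The mean ratio for Fdft1 was 0.441 in naive libraries, 0.414 in YAP1-MAMLD1-dR3R1 and 0.403 in YAP1-FAM118B. It was 0.459 in YAP1-TFE3, whose libraries overlapped naive and YAP1-MAMLD1-dR3R1. Idi1 had overlapping ranges in naive (0.0374 to 0.0587) and YAP1-TFE3 (0.0499 to 0.0835). Replicate 2, mostly the highest in CPM, gave the lowest YAP1-TFE3 ratio for Sqle and the highest for Hmgcs1 (3.07) and Fdft1 (0.513).

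**Figure D2:**
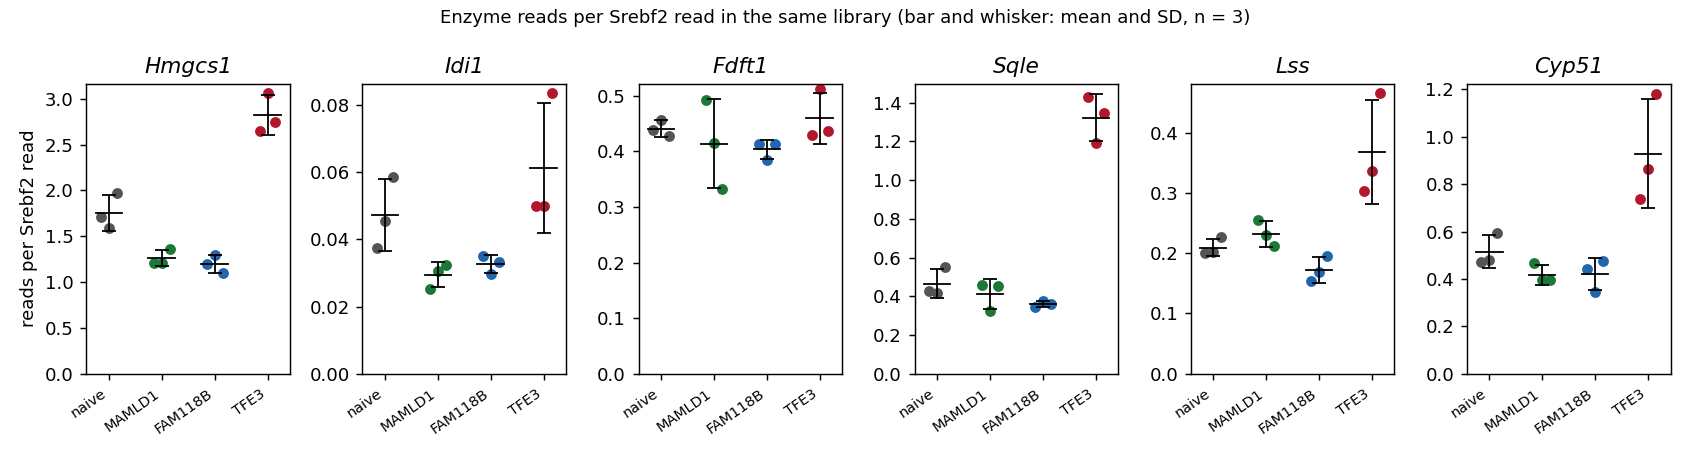
Reads of each enzyme gene per Srebf2 read in the same library (vertical axis, from 0), with points for replicates 1 to 3 and a bar and whisker for the mean and SD (n = 3). For Sqle the YAP1-TFE3 points, 1.19 to 1.43, stand above all others, while the Fdft1 groups, with means of 0.403 to 0.459, lie close together.

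Across the 12 libraries the log2 CPM of the 5 enzymes other than Fdft1 correlated with each other at Pearson r of 0.769 to 0.940 over 10 pairs. Fdft1 correlated with those enzymes at 0.446 to 0.721 and with Srebf2 at 0.913, and Srebf2 with the 5 enzymes at 0.327 to 0.679. Over the 9 tumour libraries the values were 0.848 to 0.962 among the 5 enzymes and 0.825 for Fdft1 with Srebf2. These are descriptions: the libraries fall into 4 groups and share scaling and tissue makeup, so they are not independent points. By the same measure, the genes outside the 7 whose pattern was most like the mean of the 7 over 12 libraries were Epm2a (r = 0.967), Msmo1 (0.966), Stard4 (0.958), Acat2 (0.957), Stard7 (0.954), Mvd (0.949) and Mipep (0.9285). Over the 9 tumour libraries they were Stard4 (0.971), Mvd (0.968), Rps19bp1 (0.965), Msmo1 (0.961), Epm2a (0.960), Stard7 (0.952), Acat2 (0.951) and Fdps (0.946). Msmo1, Acat2, Mvd and Fdps are other enzymes of the chain, and Stard4 is a carrier of cholesterol between membranes. Epm2a, Stard7, Mipep and Rps19bp1 are in none of the sterol and lipid lists counted below, so the pattern was not limited to genes of those lists.

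The other 16 synthesis genes were counted in the same way. Against naive, 10 of 16 fell and 2 rose in YAP1-MAMLD1-dR3R1, 7 fell and 2 rose in YAP1-FAM118B, and 2 fell and 6 rose in YAP1-TFE3. Over all genes, 28.8% were called lower and 34.4% higher in the first of these comparisons, 8.45% and 21.3% in the next, and 30% and 40.6% in the last, so 6 of 16 higher in YAP1-TFE3 is close to the share of all genes. The medians of the 16 were -0.54, -0.43 and 0.34, beside 0.06, -0.05 and 0.23 over all genes. Lbr and Ebp went against most of the list in YAP1-MAMLD1-dR3R1, rising by 1.59 and 1.45 (adjusted p = 9.26e-05 and 1.84e-04). Lbr is also a protein of the inner nuclear membrane, besides its sterol reductase role. In YAP1-TFE3, Dhcr7, an enzyme of the last steps to cholesterol, rose 6.10-fold (log2 2.61 ± 0.23, adjusted p = 8.90e-06) and Lbr rose by 1.97 (adjusted p = 1.81e-05). None of the 16 was called lower in YAP1-TFE3 than in another tumour group: 9 were higher than in YAP1-MAMLD1-dR3R1 and 10 higher than in YAP1-FAM118B, with medians of 1.01 and 0.77. Of all genes, 22.6% and 28% were called higher in these contrasts and 16.9% and 23.7% lower, with medians of -0.05 and 0.08.

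**Figure D3:**
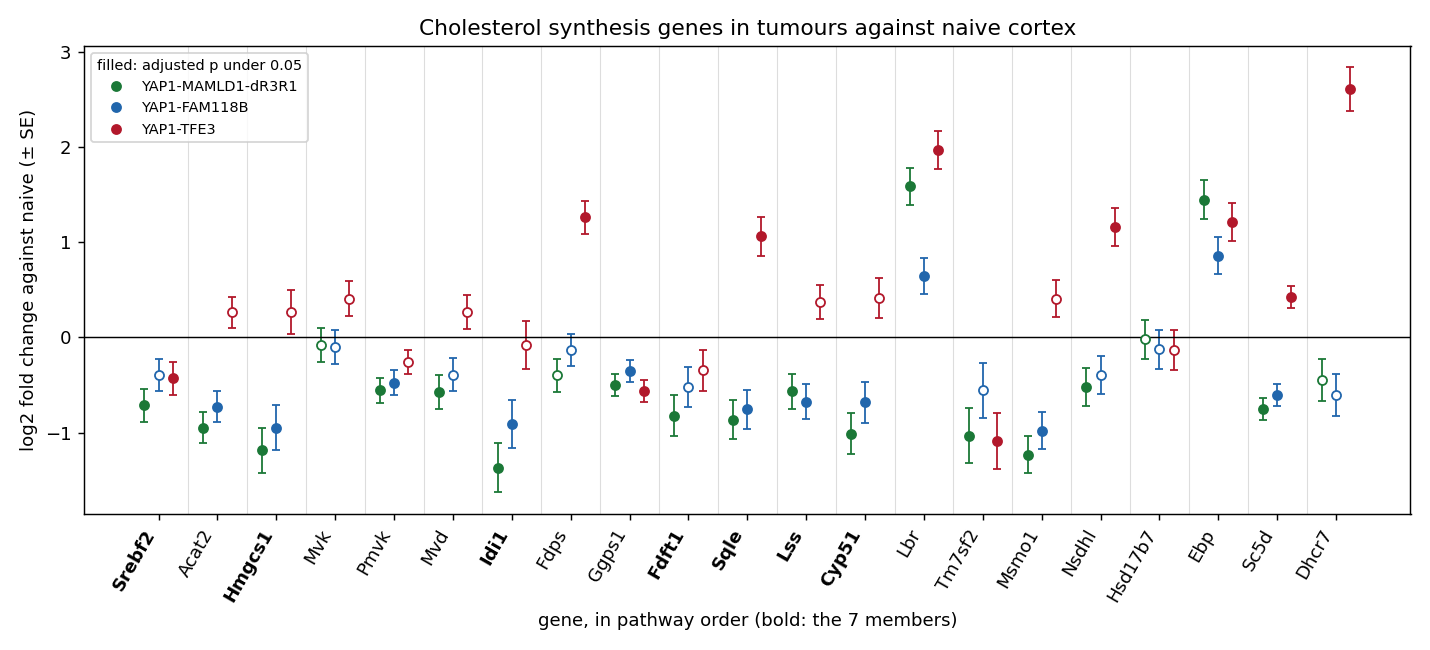
Log2 fold change against naive (vertical axis, ± SE) for Srebf2 and synthesis genes in pathway order, the 7 genes described here in bold; filled points passed an adjusted p of 0.05. YAP1-TFE3 points lie above those of the other tumours for most genes, with Dhcr7 highest at 2.61, and YAP1-MAMLD1-dR3R1 points lie mostly below 0.

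SREBP-2 is bound to its escort Scap, which the Insig proteins hold in the endoplasmic reticulum when sterols are plentiful. Once released it is cut free by 2 proteases, and 8 genes of this control were counted. In YAP1-TFE3, 7 of 8 were called higher than naive and none lower, where 40.6% of all genes were called higher and 30% lower. The median of the 8 was 1.001, beside 0.23 over all genes. Insig2, a retention protein, rose by 1.11 (adjusted p = 4.58e-05) and Mbtps1, the first of the proteases, by 1.18 (adjusted p = 1.16e-04). Mean Mbtps1 was also above naive (102 CPM) in YAP1-MAMLD1-dR3R1 (186) and YAP1-FAM118B (151). In YAP1-MAMLD1-dR3R1, 3 of 8 rose and 1 fell, beside 34.4% and 28.8% of all genes. Srebf1, which encodes the related factor SREBP-1, rose by 1.93 there (adjusted p = 5.20e-04), and Insig1 fell by 0.83 (adjusted p = 0.00578). In YAP1-FAM118B 1 rose and 1 fell, beside 21.3% and 8.45% of all genes. Insig1, itself a gene switched on by SREBP-2, was 4.59-fold higher in YAP1-TFE3 than in YAP1-FAM118B (log2 2.20 ± 0.21, adjusted p = 4.84e-05).

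The 11 uptake genes were counted next. Against naive, 6 rose and 2 fell in YAP1-MAMLD1-dR3R1, 4 rose and none fell in YAP1-FAM118B, and 6 rose and 2 fell in YAP1-TFE3, with medians of 1.23, 0.70 and 1.43 beside 0.06, -0.05 and 0.23 over all genes. The shares of all genes called in either direction were 63.2%, 29.7% and 70.6%, close to the 8, 4 and 8 of 11 called here. Npc1, which moves cholesterol out of lysosomes, rose by 1.43 in YAP1-TFE3 (adjusted p = 7.76e-05). Npc2, the soluble partner of Npc1, rose by 3.61 in YAP1-MAMLD1-dR3R1 (adjusted p = 1.35e-05). Mean Npc2 was also above naive (69.6 CPM) in YAP1-FAM118B (329) and YAP1-TFE3 (505). Mean Npc1 was at 150 CPM in YAP1-MAMLD1-dR3R1 and 94.2 in YAP1-FAM118B (naive 83.6). Vldlr, a lipoprotein receptor that also serves reelin signalling, fell by 1.31 in YAP1-TFE3 (adjusted p = 0.00121). Its mean was 70.2 CPM in YAP1-MAMLD1-dR3R1 and 111 in YAP1-FAM118B (naive 118). Lrp1, a receptor of many ligands, was lower in YAP1-TFE3 than in YAP1-FAM118B by 1.47 (adjusted p = 7.97e-04, log2 value -1.47).

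Among 11 efflux and storage genes 8 rose and 3 fell in YAP1-MAMLD1-dR3R1, 4 rose and 2 fell in YAP1-FAM118B, and 7 rose and 3 fell in YAP1-TFE3, where 63.2%, 29.7% and 70.6% of all genes were called in either direction. In YAP1-TFE3 the exporter Abca1 rose by 3.398, Soat1, which esterifies cholesterol for storage, by 2.70, and Ch25h, which makes 25-hydroxycholesterol, by 4.28 (adjusted p = 4.15e-05, 1.73e-05 and 5.86e-05). The exporters Abcg4 and Abcg1 fell by 3.10 and 1.63 (adjusted p = 9.23e-05 and 2.28e-04). The rises were not particular to YAP1-TFE3. In YAP1-MAMLD1-dR3R1 and YAP1-FAM118B, mean Abca1 was 370 and 123 CPM (naive 47.5) and Soat1 92.2 and 54.9 (naive 22.9). Ch25h was at 17.3 and 25.7 CPM there, 14.1 in YAP1-TFE3 and 0.718 in naive, where counts were 10 to 29 reads. Abcg4 was also lower there (11.1 and 32.3, naive 69.6). Abcg1 was at 129 and 69.1 (naive 82.6). Of 11 fatty acid synthesis genes, which SREBP-1 chiefly drives, none rose and 4 fell in YAP1-MAMLD1-dR3R1 and in YAP1-FAM118B, and 4 rose and 2 fell in YAP1-TFE3. Of all genes, 28.8% and 8.45% were called lower in the first 2 of these, and 40.6% higher and 30% lower in the last. Fasn, fatty acid synthase, fell by 1.20 and Acss2, acetyl-CoA synthetase, by 1.502 in YAP1-TFE3 (adjusted p = 3.20e-04 and 1.49e-05). Thrsp and Fads1 were higher in YAP1-TFE3 than in YAP1-FAM118B, by 3.85 and 1.06 (adjusted p = 6.30e-05 and 4.85e-04).

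**Figure D4:**
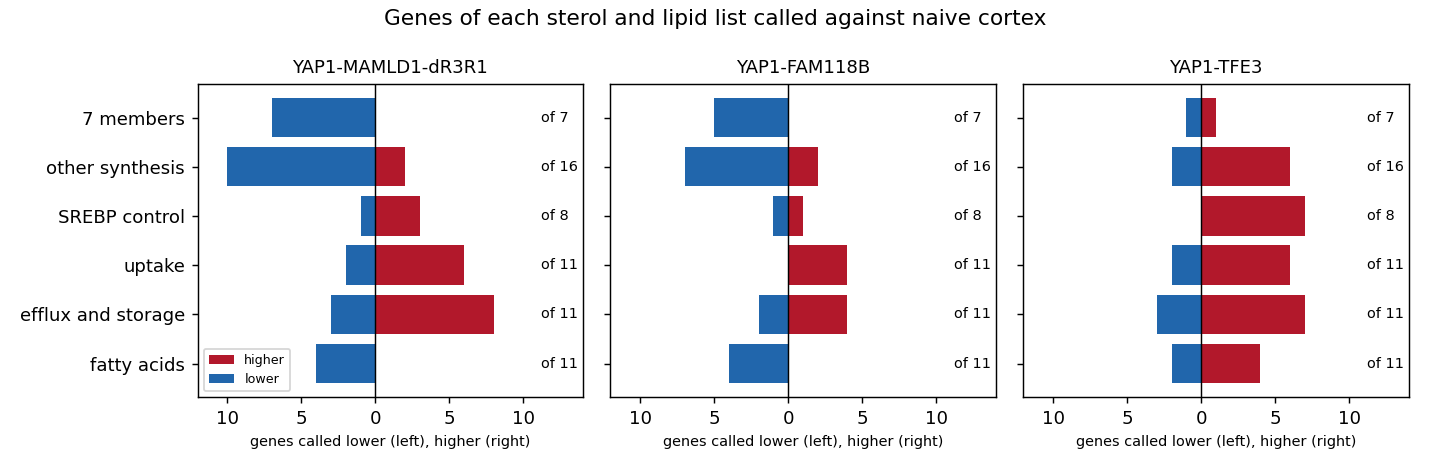
Number of genes of each sterol and lipid list called higher (right) or lower (left) than naive at an adjusted p of 0.05, 1 panel per tumour group, with the list size at the right. The first 2 panels have blue bars of 7 and 5 for the 7 genes, and the YAP1-TFE3 panel has 1 gene on each side.

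The makeup of the tissue moved with these comparisons. Marker calls below stand beside 28.8%, 8.45% and 30% of all genes called lower than naive in YAP1-MAMLD1-dR3R1, then FAM118B and TFE3 fusions, and 34.4%, 21.3% and 40.6% called higher. Summed myelin markers (12 genes) were at 6275 to 12538 CPM in naive libraries, 2011 to 4640 in YAP1-MAMLD1-dR3R1, 2239 to 5329 in YAP1-FAM118B and 609 to 969 in YAP1-TFE3, and 7, 4 and 12 of the 12 were called lower than naive. Neuron markers were at 582 to 1699 CPM in YAP1-MAMLD1-dR3R1, 4631 to 7055 in YAP1-FAM118B and 283 to 1453 in YAP1-TFE3, with 9, 1 and 11 of 12 called lower. In YAP1-TFE3, with the lowest summed myelin markers of the 4 groups, Sqle was higher than naive and the other 5 enzymes were not called. Astrocyte markers (10 genes) were at 4501 to 5553 CPM in naive, 4380 to 7111, 2360 to 4764 and 1491 to 3507 in the tumours in the same order. Of these, 1, 0 and 3 were called higher and 3, 1 and 6 lower. The sums for YAP1-MAMLD1-dR3R1 and YAP1-TFE3 thus join genes that moved in opposite directions. Microglia and macrophage markers (12 genes) were at 233 to 298 CPM in naive and 7125 to 10530, 2195 to 2602 and 1598 to 4982 in the tumours, and 12, 11 and 11 were called higher. Cell cycle genes were at 62.8 to 74.1 CPM in naive, 536 to 866, 401 to 419 and 1933 to 2471 in the tumours, with all 12 called higher in each. Fibroblast markers (10 genes) summed to 844 to 866 CPM in naive and to 4288 to 6002, 3822 to 20078 and 1006 to 2305 CPM in the tumours, with 6, 6 and 3 called higher and 1, 0 and 1 called lower. Most of the naive sum was Thy1, at 679 ± 45.2 CPM. Its means in the tumours were lower, at 116 ± 46.1, 447 ± 44.1 and 39.3 ± 45.4 CPM. Endothelial markers (10 genes) summed to 135 to 156 CPM in naive and to 408 to 573, 137 to 289 and 218 to 370 CPM, with 9, 1 and 6 called higher. The YAP1-FAM118B sums overlapped naive for the endothelial list. No marker of these lists was at 0 in any library. The part of cell makeup and of cell division in the changes of the 7 genes was not tested, and in bulk tissue fewer cells of a type and less RNA per cell cannot be told apart.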

How the data were processed

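RNA-seq of 12 mouse brain libraries, 4 groups of 3, was analysed. The deposited files hold raw counts by gene symbol. HTSeq and the build mm10 are named in the submitters' processing notes. The aligner, annotation and strand setting were not given in the sources used. Counts of 24421 symbols were filtered with edgeR's filterByExpr (minimum count 10, 16364 genes kept), scaled by TMM (factors 0.875 to 1.07) and tested with edgeR 4.0.16 in R 4.3.3 by the quasi-likelihood method, with 1 mean per group over all 12 libraries, 6 contrasts and Benjamini-Hochberg adjustment over all genes tested at 0.05. The SE is the log2 fold change divided by the square root of F. The 95% intervals take that SE with 8 residual degrees of freedom. The test also borrows degrees of freedom across genes, so these intervals are wider than its own would be. An interval that just includes no change can therefore go with an unadjusted p under 0.05. Log2 CPM for correlations used a prior count of 2. The script was tested on simulated data in which few genes changed, in 1 group. That test does not cover changes as wide as those seen here. The 7 genes and all lists were chosen with earlier results of these data known. Named genes of other lists were up to 4 per list by smallest adjusted p over the 6 contrasts, plus up to 2 that went against most called genes of their list. The genes most like the 7 were the 8 with the highest r. Some genes that these rules pick are not reported here by name, though the counts of the lists include them. Lengths and positions came from GENCODE vM21 and promoters from RefSeq GRCm38.p6, the NCBI name of the patch release of the mm10 assembly. Alternatives were DESeq2 1.42.0, other scalings and filters, a replicate block, fits on only the groups compared, leaving out single libraries and dropping naive replicate 2 and YAP1-FAM118B replicate 2 together, since they held Xist beside Y-linked reads. A fit on only the libraries with Ddx3y and almost no Xist was chosen after seeing the data. No pair of libraries agreed within sampling noise (chi-square per degree of freedom 19.6 to 187).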

Additional observations from a re-analysis of the deposited data

Results flagged for a closer look

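The change of 5 enzyme genes against naive differed between tumour groups by a test of the difference itself, which is the same as the direct contrast of the tumours because naive libraries cancel. Between YAP1-TFE3 and YAP1-MAMLD1-dR3R1 the log2 difference was 1.93 for Sqle, 1.46 for Hmgcs1, 1.43 for Cyp51, 1.29 for Idi1 and 0.94 for Lss. Between YAP1-TFE3 and YAP1-FAM118B it was 1.82 for Sqle, 1.22 for Hmgcs1, 1.10 for Cyp51, 1.05 for Lss and 0.83 for Idi1. For each of these 10 differences all YAP1-TFE3 libraries lay above all libraries of the other tumour group. The same was seen for 27% of all genes against YAP1-MAMLD1-dR3R1 and for 31.4% against YAP1-FAM118B. Both sets use the same YAP1-TFE3 libraries.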

How the results depend on the processing

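The 6 counts of called genes (7, 5, 2, 0, 5 and 5, in the order of the report) were the same with DESeq2, RLE and upper-quartile scaling. Scaling by library size alone, a filter of 1 CPM and the lack of any filter changed them by at most 1. Leaving out single libraries gave 6 to 7, 1 to 7, 1 to 3, 0 to 2, 5 to 5 and 4 to 6. For YAP1-TFE3 against naive the count was 1 with the replicate block, with only the groups compared, and without the pair of replicates 2 (naive and YAP1-FAM118B) in which Xist and Y-linked reads were both found. That last setting gave 2 for YAP1-FAM118B against naive, and only the groups compared gave 7. On only the libraries with Ddx3y and almost no Xist, most calls were lost, and the sizes are given above. That fit leaves 1 naive and 1 YAP1-FAM118B library, each assumed to vary like the other groups, and fewer libraries. The cause of the other changes was not tested.

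Signs that turned belonged to values that were not called with all libraries. Fdft1 in YAP1-TFE3 against YAP1-FAM118B was -0.0230 by library size only, -0.00251 with no filter, -0.0626 with the 1 CPM filter and -0.0770 on the Ddx3y libraries, and between -0.46 and 0.22 when single libraries were left out. The first 3 settings shifted the median of all genes in this contrast by -0.21, -0.15 and -0.25, about as much as Fdft1 moved from 0.18. Lss in YAP1-FAM118B against YAP1-MAMLD1-dR3R1 was 0.21 on the Ddx3y libraries. Leaving out single libraries, Idi1 in YAP1-TFE3 against naive ran from -0.38 to 0.0671 (positive without naive replicate 3). In the same way YAP1-TFE3 against naive ran from -0.27 to 0.32 for Hmgcs1 and from -0.00645 to 0.41 for Lss, and YAP1-TFE3 against YAP1-MAMLD1-dR3R1 from -0.0651 to 0.59 for Fdft1 and from -0.14 to 0.28 for Srebf2. The negative ends of these 4 were without YAP1-TFE3 replicate 2, a fit that shifted the median of all genes by -0.22 against naive and by -0.21 against YAP1-MAMLD1-dR3R1.

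For same-numbered libraries of different groups, the correlation of their deviations ran from -0.11 to 0.32 over 18 pairs, with 4 over 0.1. These 4 were all between tumour groups (0.160, 0.205, 0.324 and 0.248). Pairs with different numbers ran from -0.42 to 0.36. Whether same-numbered tumour libraries share a source of variation was not tested. The replicate block changed no other count of called genes. Idi1 had the lowest counts of the 7, at 78 to 285 reads.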
